A study of Homo sapiens with 6 samples.

Results

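The 7 RNAs described here are abundant structural noncoding RNAs and nuclear long noncoding RNAs of the human cell: the 7SL RNA gene RN7SL1, the 7SK RNA gene RN7SK, RMRP, RPPH1, the U3 gene SNORD3A, MALAT1 and NEAT1. They were chosen by name and matched by symbol to 7 of the 60669 gene models in the count files, which follow GENCODE 34 on hg38. Counts came from total RNA of 293T cells, a line of human embryonic kidney origin that carries the SV40 large T antigen, in 6 libraries. CRISPR/Cas9 had been used to knock out MLL2 in the cells of 2 libraries, a short hairpin RNA to knock down PRMT1 in those of 2 others, and 2 libraries were of wild-type control cells, and the labels list no other treatment for any group. The study asked which genes change in expression on each depletion. Its description calls the 2 libraries of a group biological replicates, without saying whether they are separate cultures, so p-values measure the spread between these libraries. The labels do not say whether the knockout cells are 1 clone or whether the control cells carry a hairpin. The alignment names in the headers of the count files hold the letters shNT for the control and knockout libraries and shPR for the knockdown libraries, which the labels do not explain.

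RN7SL1 encodes the RNA scaffold of the signal recognition particle, which guides ribosomes making secreted and membrane proteins to the endoplasmic reticulum. The 7SK RNA holds the elongation factor P-TEFb inactive together with HEXIM1 or HEXIM2, LARP7 and MEPCE. RPPH1 is the RNA of RNase P, which trims the 5′ ends of precursor transfer RNAs, RMRP is the RNA of the related RNase MRP, and the U3 small nucleolar RNA from SNORD3A directs early cleavages of the ribosomal precursor. RNA polymerase III makes 7SL, 7SK, RMRP and RPPH1, whereas RNA polymerase II makes U3, MALAT1 and NEAT1. MALAT1 collects in nuclear speckles, where splicing factors are stored, and NEAT1 is the scaffold of paraspeckles.

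Library totals lay between 20061471 and 22351532 counts. Among the depleted genes, PRMT1 was at 38.2 and 34.9 CPM (counts per 1000000 of a library total adjusted by TMM, the scaling of edgeR) in the knockdown, against 406 and 425 CPM in the knockout and, in control, 306 and 319 CPM. KMT2B and KMT2D have each been called MLL2, and neither was lower in the knockout: KMT2B was at 7.12 and 7.36 CPM against 6.74 and 7.53 CPM in control, and KMT2D at 20.8 and 24.2 CPM against 22.5 and 17 CPM. A gene's count need not fall when its coding sequence is disrupted, so the counts do not check the knockout label. In the knockdown PRMT1 was called lower against control, and the other 2 genes, KMT2B and KMT2D, were called higher. Their knockdown libraries differed, with replicate 2 minus replicate 1 at 0.99 for KMT2B and 1.34 for KMT2D in log2 CPM. Of 7 genes taken as marks of 293T cells, all had counts in every library, with a summed level of 887 to 892 CPM in the knockout, 1003 to 1084 CPM in the knockdown and 1222 to 1244 CPM in control. Of the 7, 0 were called higher and 4 lower in the knockout (median log2 change -0.73), and 1 higher and 4 lower in the knockdown (median -1.59). Of all genes tested, 10.3% were called higher and 12.1% lower in the knockout, and 22.2% higher and 25.3% lower in the knockdown. PAX2 was the weakest of the 7 markers, at no more than 0.54 CPM. The 6 markers of blood, endothelium and fibroblasts summed to at most 1.55 CPM in any library, and CD3E was at 0 in all 6.

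Counts were found for 4 of the 7 RNAs: RN7SL1, SNORD3A, MALAT1 and NEAT1. Together the 7 took 5.40% and 5.26% of all counts in the knockout libraries, 5.17% and 5.63% in the knockdown libraries and 5.20% and 5.97% in the control libraries. The group means were 5.33% ± 0.10 in the knockout, 5.40% ± 0.32 in the knockdown and 5.58% ± 0.55 in control (SD, n = 2 each), and the 3 groups overlapped. RN7SL1 alone was the gene with the most counts in all 6 libraries, and SNORD3A was 2nd in the 4 depleted libraries and 3rd in both control libraries. MALAT1 ranked 667 and 640 by count in the knockout, 137 and 64 in the knockdown, and 308 and 338 in control. Per length, RN7SL1 stood at 149064 CPM per kb of exon in the knockout, 127435 in the knockdown and 150937 in control, SNORD3A at 14023, 17412 and 16962 in the same order, MALAT1 at 28.5, 91.5 and 44.2, and NEAT1 at 1.21, 3.66 and 1.90. The order of the 4 per length was the same in the 3 groups. SNORD3A's value per length uses its model of 699 nt, whereas the U3 RNA has 218 nt. The 95% Wilson interval of a share reached at most 0.00904 percentage points to either side for RN7SL1, where the SD between libraries was 0.078 in the knockout, 0.029 in the knockdown and 0.39 in control. For NEAT1 it reached at most 4.6e-04 percentage points, and its knockout libraries lay closer together than that (SD 2.2e-05). Such intervals cover counting error only.

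RN7SK, RMRP and RPPH1 were listed at 0 in all 6 libraries. A count of 0 allows at most 3 counts, or 0.134 to 0.150 CPM, in a library, but the limit holds only for fragments that could be assigned to the gene. The count files were made without assigning fragments that overlap several gene models, and for each of these RNAs every base of the model lay inside another model on the same strand. RN7SK (ENSG00000283293.1, chr6:52995621-52995948, + strand, 328 nt) lies inside a second 7SK model of 331 nt, ENSG00000202198.1, which was also at 0. RMRP (ENSG00000277027.1, chr9:35657754-35658017, - strand, 264 nt) lies inside the 268-nt model ENSG00000269900.3, also at 0. RPPH1 (ENSG00000277209.1, chr14:20343075-20343407, - strand, 333 nt) lies inside the 638-nt model ENSG00000259001.3, which had 0 or 1 count per library. Across the annotation, 1183 of 1255 genes with every base shared in this way were at 0 in all libraries (94.3%), against 48.9% of 54075 genes with no shared base. Among short noncoding genes it was 383 of 383, against 74.6% of 4603. The zeros of RN7SK, RMRP and RPPH1 are therefore no measure of these RNAs, and no comparison of them was made.

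What was counted of 7SK-like sequence fell on pseudogenes, copies of the 7SK gene elsewhere in the genome. The RN7SK sequence and that of RN7SKP80 (ENSG00000202058.1, chr22:42565048-42565330, - strand), the pseudogene with the most counts, are shown to let the copy be compared with its source; RN7SK is given from base 1 to base 300 and RN7SKP80 whole, both as GENCODE 29 transcripts on GRCh38 in DNA letters. Capitals mark the 9 mismatches in an end-to-end alignment with 273 identical bases, and the 47 gap bases are not marked.
RN7SK: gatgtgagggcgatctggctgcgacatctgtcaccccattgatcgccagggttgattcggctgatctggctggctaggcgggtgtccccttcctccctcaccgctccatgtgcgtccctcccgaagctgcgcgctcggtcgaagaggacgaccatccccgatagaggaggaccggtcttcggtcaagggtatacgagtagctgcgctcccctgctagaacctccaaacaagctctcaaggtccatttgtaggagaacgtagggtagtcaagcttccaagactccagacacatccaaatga
RN7SKP80: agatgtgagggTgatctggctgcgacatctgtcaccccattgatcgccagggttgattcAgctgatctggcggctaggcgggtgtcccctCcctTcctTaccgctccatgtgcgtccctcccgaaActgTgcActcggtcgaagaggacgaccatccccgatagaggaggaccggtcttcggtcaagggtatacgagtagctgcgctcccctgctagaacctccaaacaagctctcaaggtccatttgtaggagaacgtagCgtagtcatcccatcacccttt
Of 293 RN7SK pseudogenes, 88 had a count, and the 4 with the most held 83.4% of their counts. Their summed level was 167 and 101 CPM in the knockout, 172 and 72.3 CPM in the knockdown and 233 and 119 CPM in control. In each group replicate 1 was above replicate 2, by 1.65 times in the knockout, 2.37 times in the knockdown and 1.95 times in control, and the 3 groups overlapped, although among libraries of the same number both depleted ones lay below control. RN7SKP80 itself stood at 85.4 and 50.5 CPM in the knockout, 82.9 and 30.4 CPM in the knockdown and 115 and 57.3 CPM in control. Its log2 change was -0.34 ± 0.30 (SE) in the knockout (adjusted p = 0.470) and -0.61 ± 0.31 in the knockdown (adjusted p = 0.108). Of the 4 RN7SK pseudogenes and 1 RN7SL pseudogene with the most counts, 0 were called lower in the knockout and 2 in the knockdown. Of all genes tested, 12.1% were called lower in the knockout and 25.3% in the knockdown. The median log2 change of these pseudogenes in the knockdown was -0.61. It was -1.48 without knockdown replicate 1 and -0.09 without knockdown replicate 2. With a correction for exon length 0 of these pseudogenes were called lower in either depletion. Over all genes that correction gave 2121 lower in the knockout and 3894 in the knockdown. The 677 RN7SL pseudogenes did not split by replicate number in this way: replicate 1 stood at 1.15, 0.990 and 1.12 times replicate 2 in knockout, knockdown and control. Whether counts at these pseudogenes come from the pseudogenes or from 7SK and 7SL RNA was not tested.

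**Figure D1:**
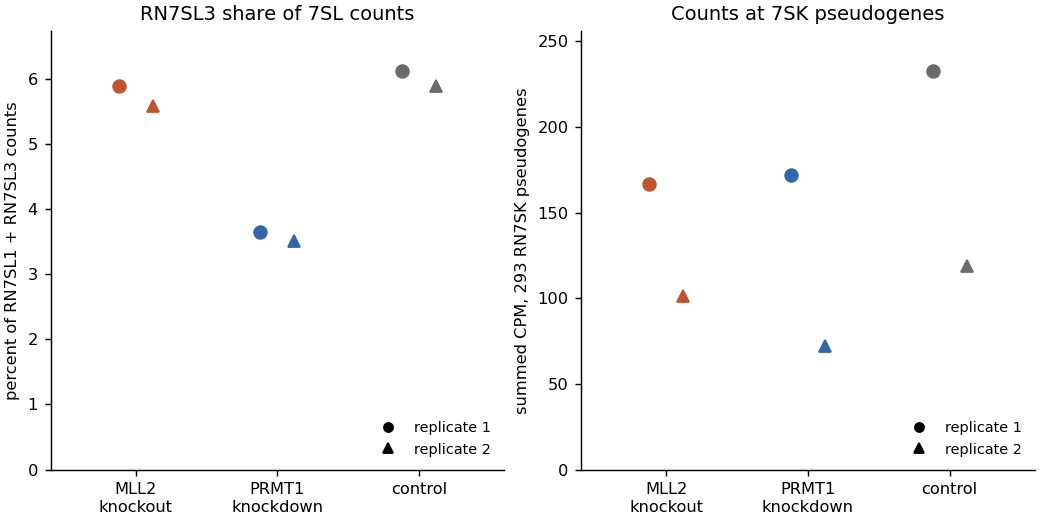
Left, RN7SL3 counts as a percent of RN7SL1 plus RN7SL3 counts in each library; right, summed CPM of the 293 RN7SK pseudogenes in each library. Circles are replicate 1 and triangles replicate 2: on the left the knockdown libraries, at 3.65% and 3.50%, lie below the other 4, and on the right replicate 1 lies above replicate 2 in every group.

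RN7SL1 (ENSG00000276168.1, chr14:49586580-49586878, + strand, 299 nt, a single exon) had the most counts of the 7 RNAs. It held 4.40% and 4.29% of counts in the knockout, 4.04% and 4.0% in the knockdown, and 4.11% and 4.67% in control. In CPM this was 45466 and 43759 in the knockout, 39166 and 37151 in the knockdown, and 42286 and 48073 in control, so the knockout lay within the control range and both knockdown libraries lay below both controls. In edgeR's quasi-likelihood test across 17575 genes, with Benjamini-Hochberg adjustment, the knockout differed from control by -0.018 ± 0.09 on the log2 scale (adjusted p = 0.916). The knockdown fell by 0.24 ± 0.09, or 1.18-fold, against control (adjusted p = 0.0384), and its difference from the knockout was -0.23 ± 0.09 (adjusted p = 0.0619). The call against control did not last under plain library totals (-0.13, adjusted p = 0.0837), without control replicate 2 (-0.16, adjusted p = 0.370), or in the 2 groups fitted alone (adjusted p = 0.288), and with a correction for exon length the value was 0.029 (adjusted p = 0.799).

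RN7SL3 (ENSG00000278771.1, chr14:49853616-49853914, - strand), a second 7SL gene of the same length, did change in the knockdown. Both genes are transcribed as 7SL RNA, and their transcripts differ at 7 of 299 positions. RN7SL3 had 61564 and 52671 counts in the knockout, 30706 and 30743 in the knockdown, and 55227 and 61102 in control, which is 2846 and 2584 CPM, 1485 and 1349 CPM, and 2756 and 3007 CPM. The knockdown libraries lay far below the other 4, which overlapped. The knockdown fell by 1.02 ± 0.09 against control, or 2.03-fold (adjusted p = 8.4e-09), and by 0.94 ± 0.09 against the knockout (adjusted p = 4.7e-08). The knockout's change against control was -0.09 ± 0.09 (adjusted p = 0.533). As a share of the counts of both genes, RN7SL3 made up 5.89% and 5.58% in the knockout, 3.65% and 3.50% in the knockdown, and 6.12% and 5.89% in control, with group means of 5.73% ± 0.22, 3.58% ± 0.10 and 6.0% ± 0.16 (SD, n = 2 each). This share was not tested. Since the 2 models have the same length, the scaling of libraries and a correction for exon length act on both alike. Whether the assignment of fragments to the 2 copies differed between libraries in other ways was not tested. RN7SL2 (ENSG00000274012.1, chr14:49862550-49862849, - strand), the third copy, was at 0 in every library, and all its bases lie inside the model ENSG00000282885.2. Fragments that fit 2 copies equally well fail the authors' mapping quality minimum of 10, so the counts of each copy rest on fragments that cover bases in which it differs from the others.

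SNORD3A (ENSG00000263934.4, chr17:19188016-19188714, + strand) did not pass the test in either depletion with the settings used throughout. Its counts were 216783 and 195718 in the knockout, 212038 and 321803 in the knockdown, and 214618 and 264765 in control. These are 10022 and 9601 CPM in the knockout, 10254 and 14124 CPM in the knockdown and 10710 and 13029 CPM in control. Both knockout libraries lay below both controls, while the knockdown libraries lay on either side of them. The log2 change was -0.27 ± 0.12 in the knockout (adjusted p = 0.106) and 0.038 ± 0.12 in the knockdown (adjusted p = 0.817). The knockout's change did pass, at a like size, in the 2 groups fitted alone (-0.27, adjusted p = 8.3e-05) and with no count filter (-0.27, adjusted p = 4.4e-04). It did not pass in DESeq2 (-0.26, adjusted p = 0.455), with a correction for exon length (-0.24, adjusted p = 0.183) or under plain library totals (-0.27, adjusted p = 0.107). With knockdown replicate 1 or 2 left out it stayed at -0.27. It was -0.13 without control replicate 2 and -0.41 without control replicate 1. Against the knockout the knockdown was 0.31 ± 0.12 higher (adjusted p = 0.0411), a call lost when any of 5 libraries was left out: without knockdown replicate 2 it was 0.061 (adjusted p = 0.262), and without either knockout library the adjusted p was 0.123 or 0.214. The sign in the knockdown against control turned with 1 library, to -0.21 without knockdown replicate 2 and -0.10 without control replicate 1. Without knockdown replicate 1 the change was 0.24. With a correction for exon length the knockdown was 0.48 above control (adjusted p = 0.00389).

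The SNORD3A model of 699 nt is longer than the U3 RNA, whose 218-nt transcript occupies chr17:19188016-19188233. It is shown with the U3 transcripts of SNORD3B-1 (ENSG00000265185.5, chr17:19061912-19062129, + strand) and SNORD3C (ENSG00000264940.4, chr17:19190028-19190245, - strand), each of which differs from it at 1 base, in capitals, because the count tables give SNORD3A 611 to 1198 times the counts of SNORD3B-1 and 620 to 817 times those of SNORD3C.
SNORD3A: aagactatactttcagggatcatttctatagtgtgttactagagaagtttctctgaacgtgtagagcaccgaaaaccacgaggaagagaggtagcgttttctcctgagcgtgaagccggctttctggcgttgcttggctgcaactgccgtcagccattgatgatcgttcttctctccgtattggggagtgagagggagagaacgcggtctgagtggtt
SNORD3B-1: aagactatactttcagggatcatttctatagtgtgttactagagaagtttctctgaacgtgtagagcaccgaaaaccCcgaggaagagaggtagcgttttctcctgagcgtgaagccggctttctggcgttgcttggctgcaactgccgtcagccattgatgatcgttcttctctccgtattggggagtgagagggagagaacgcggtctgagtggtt
SNORD3C: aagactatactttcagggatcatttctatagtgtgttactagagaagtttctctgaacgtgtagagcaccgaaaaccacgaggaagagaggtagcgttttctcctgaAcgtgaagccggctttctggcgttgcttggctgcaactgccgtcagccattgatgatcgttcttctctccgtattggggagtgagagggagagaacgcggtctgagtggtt
Counted from the 5′ end of the SNORD3A transcript, the differences are A78C in SNORD3B-1 and G108A in SNORD3C. SNORD3A held 99.3% to 99.7% of all counts on the U3 genes. Among the copies, SNORD3B-2 stood at 19.6 and 17.5 CPM in the knockout, 39.8 and 31.6 CPM in the knockdown, and 13.6 and 13.7 CPM in control, with no overlap between the groups. It rose by 0.44 ± 0.15 in the knockout (adjusted p = 0.0374) and by 1.38 ± 0.15 in the knockdown, or 2.61-fold (adjusted p = 1.3e-07). SNORD3C fell by 0.48 ± 0.15 in the knockout (adjusted p = 0.0282), and its knockdown value was -0.11 ± 0.15 (adjusted p = 0.586). SNORD3B-1 passed in neither, at -0.05 ± 0.18 and 0.33 ± 0.17. The models of these copies run to 581 to 791 nt, well past the U3 RNA, so their counts need not be U3. SNORD3D was at 0 with every base shared.

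**Figure D2:**
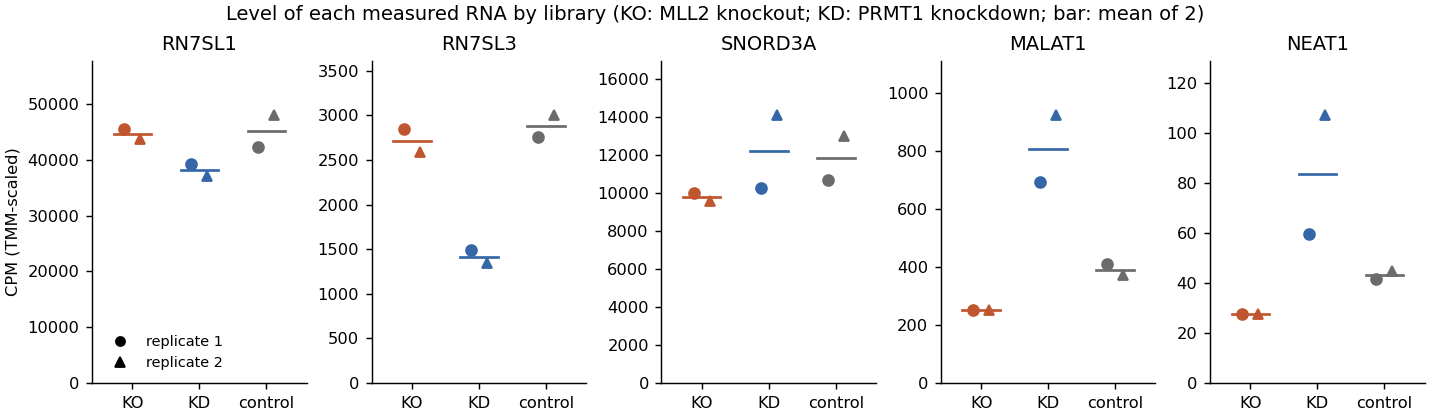
CPM (library totals adjusted by TMM) of RN7SL1, RN7SL3, SNORD3A, MALAT1 and NEAT1 in each library (vertical axes from 0; circles, replicate 1; triangles, replicate 2; bars, means of 2). MALAT1 and NEAT1 are lowest in both knockout libraries and highest in both knockdown libraries, and RN7SL3 is lowest in the knockdown.

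MALAT1 and NEAT1 moved in opposite directions in the 2 depletions. MALAT1 (ENSG00000251562.8, chr11:65497688-65506516, + strand, 8829 nt) had 5412 and 5157 counts in the knockout, 14317 and 21101 in the knockdown, and 8201 and 7568 in control. This was 250 and 253 CPM in the knockout, 692 and 926 CPM in the knockdown, and 409 and 372 CPM in control, and the 3 groups did not overlap. It fell by 0.64 ± 0.10 in the knockout, or 1.55-fold (adjusted p = 1.8e-04), and rose by 1.05 ± 0.10 in the knockdown, or 2.07-fold (adjusted p = 6.0e-08). In bulk RNA, less RNA per cell and fewer cells with the RNA cannot be told apart. Knockdown replicate 2 was the highest library, and the knockdown's change was 0.82 without it and 1.24 without knockdown replicate 1. Over the 6 libraries left out in turn, the knockout's change ran from -0.70 to -0.56. The 2 groups' direct comparison gave the knockdown 3.22 times the knockout's level (1.69 ± 0.11, adjusted p = 2.6e-10).

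NEAT1 (ENSG00000245532.9, chr11:65422774-65445540, + strand, 22767 nt) is a neighbour of MALAT1 on the same strand, and it had fewer counts over a longer model: 596 and 561 in the knockout, 1233 and 2446 in the knockdown, and 834 and 914 in control. Its level was 27.6 and 27.5 CPM in the knockout, 59.6 and 107 CPM in the knockdown, and 41.6 and 45.0 CPM in control, again with no overlap between groups. NEAT1 fell by 0.65 ± 0.17 in the knockout, or 1.57-fold (adjusted p = 0.00965), and rose by 0.95 ± 0.17 in the knockdown, or 1.93-fold (adjusted p = 8.2e-05). The knockout's call was lost without control replicate 2 (-0.59, adjusted p = 0.0744) and in DESeq2 (-0.64, adjusted p = 0.172). The knockdown's change depended on replicate 2, being 0.46 without it and 1.30 without knockdown replicate 1, and it was 0.56 at the lowest when exon length and the replicate numbers were both fitted. In the direct comparison the knockdown had 3.04 times the knockout's level (1.60 ± 0.17, adjusted p = 2.8e-07). MALAT1 had 9.08 and 9.19 times the counts of NEAT1 in the knockout, 11.6 and 8.63 times in the knockdown, and 9.83 and 8.28 times in control, with no separation of the groups.

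Few bases of MALAT1 and NEAT1 lie in shared models. MALAT1 shares 1.72% of its bases with models nested in it and NEAT1 2.13%. Fragments that reach into a nested model from outside may have gone unassigned too, and how many counts were lost was not measured. Most of the models nested in NEAT1 lie at chr11:65423273-65424118, near its 5′ end. One of the nested models, ENSG00000274072.1 (chr11:65506117-65506173, + strand), is the tRNA-like RNA that is cut from the 3′ end of the MALAT1 transcript and exported to the cytoplasm; it is shown because it is a separate product of the same gene.
tRNA-like RNA in MALAT1: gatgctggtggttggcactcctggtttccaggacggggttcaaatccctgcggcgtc
It was at 0 in all 6 libraries, every base being shared with MALAT1, so the long RNA and its tRNA-like product could not be compared.

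**Figure D3:**
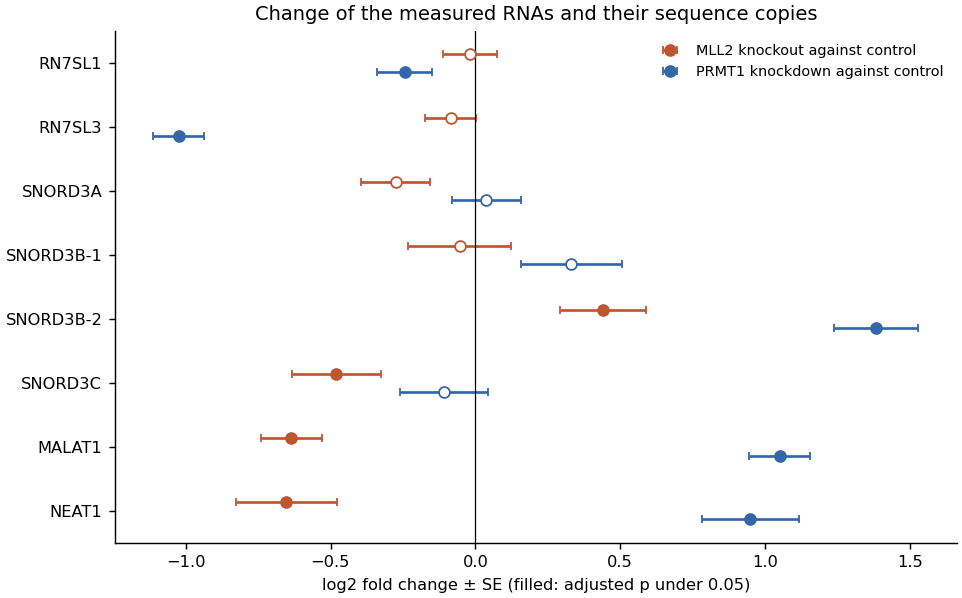
Log2 fold change ± SE of each measured RNA and its sequence copies in the MLL2 knockout and the PRMT1 knockdown against control, from edgeR fitted to all 6 libraries; filled points passed an adjusted p of 0.05. MALAT1 and NEAT1 lie left of 0 in the knockout and right of 0 in the knockdown, and RN7SL3 lies at -1.02 in the knockdown.

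Set against all genes tested, 2 of the 4 measured RNAs were called in the knockout, 0 higher and 2 lower, where 22.4% of 17575 genes were called (10.3% higher, 12.1% lower). In the knockdown 3 of 4 were called, 2 higher and 1 lower, where 47.4% of genes were called, 22.2% higher and 25.3% lower. In the knockdown against the knockout, 3 of 4 were called, all higher, where 40.7% of genes were called, 19.4% higher and 21.4% lower. With library totals alone in place of TMM factors, all log2 changes of the knockdown against control shift by 0.12, and the calls over all genes become 4852 higher and 3669 lower instead of 3899 and 4439. The 2 comparisons with control share their control libraries, so a control library that stands high or low moves both. The median log2 change of the 4 RNAs was -0.46 in the knockout, 0.49 in the knockdown and 0.96 in the knockdown against the knockout, beside -0.010, -0.035 and 0.0078 for all genes tested.

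Changes in the knockdown went with the exon length of the gene model. Taking genes whose log2 CPM averaged above 2, the knockdown's median log2 change was -0.40 for 77 genes under 500 nt, -0.50 for 145 genes of at least 500 and under 1000 nt, -0.07 for 8435 genes of at least 1000 and under 8000 nt and 0.16 for 2852 longer genes. In the knockout the 4 medians lay between -0.09 and 0.037. MALAT1 and NEAT1 belong to the longest class and RN7SL1 and RN7SL3 to the shortest. With a correction for exon length the knockdown's RN7SL1 change was 0.029, and across all alternative settings other than left-out libraries MALAT1 stayed between 0.99 and 1.17 and RN7SL3 between -1.03 and -0.75. With the same correction NEAT1 was 0.58 above control (adjusted p = 8.9e-04), against 0.95 without it, and SNORD3A gained a call. For SNORD3A the correction used the model's 699 nt, not the 218 nt of the U3 RNA. What length stands for in these libraries was not tested.

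**Figure D4:**
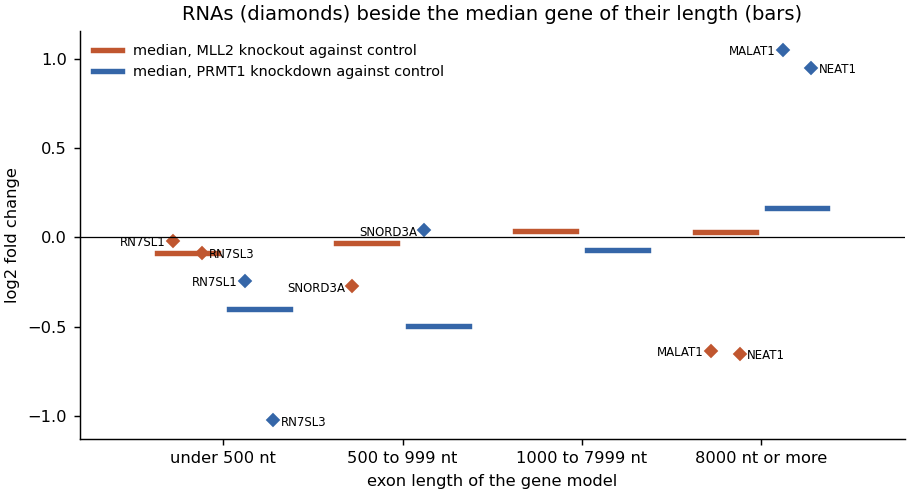
Median log2 fold change of genes in 4 classes of exon length (bars) and the measured RNAs of each class (diamonds), for the MLL2 knockout and the PRMT1 knockdown against control. From the shortest class to the longest, the knockdown medians are -0.40, -0.50, -0.07 and 0.16, while MALAT1 and NEAT1 stand at 1.05 and 0.95.

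The proteins that bind these RNAs were measured as messages, from lists written with earlier results of these data known. Their counts stand beside 10.3% of all tested genes called higher and 12.1% lower in the knockout, and 22.2% higher and 25.3% lower in the knockdown. With the length correction the knockout's calls over all genes were 2327 higher and 2121 lower, against 1817 and 2124. The knockdown's were then 4645 higher and 3894 lower, against 3899 and 4439. Without knockdown replicate 1 or 2 the knockout's calls over all genes grew as well, to 2645 or 2698 higher, against 1817. Of 8 genes for signal recognition particle proteins and their receptor, 3 were higher and 0 lower in the knockout, and 4 higher and 0 lower in the knockdown, with medians of 0.21 and 0.22; the knockout count was 6 higher with either knockdown library left out. SRPRB, a subunit of the receptor, stood at 148 and 143 CPM in the knockout, 212 and 197 CPM in the knockdown and 111 and 115 CPM in control, and it rose by 0.36 ± 0.08 (adjusted p = 0.00335) and 0.86 ± 0.08 (adjusted p = 4.5e-08). SRPRA, the other receptor subunit, rose by 0.32 ± 0.10 and 0.75 ± 0.10, and SRP19, which loads SRP54 onto 7SL RNA, by 0.56 ± 0.13 and 0.77 ± 0.13. SRP14, which with SRP9 binds the Alu domain of 7SL, rose in the knockdown (0.38 ± 0.10, adjusted p = 0.00269). Its knockout value was 0.22 ± 0.10 (adjusted p = 0.102), and the knockdown was not shown to differ from the knockout (0.15, adjusted p = 0.213).

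Of 7 genes for 7SK particle proteins and P-TEFb, 1 was higher and 0 lower in the knockout, and 3 were higher and 2 lower in the knockdown (medians 0.22 and 0.23). The knockout count was 3 higher with either knockdown library left out and with the length correction. HEXIM1, the inhibitor that 7SK brings to P-TEFb, stood at 25.7 and 32.3 CPM in the knockout, 39.4 and 34.5 CPM in the knockdown and 16.0 and 15.4 CPM in control. It rose by 0.88 ± 0.14 in the knockout (adjusted p = 1.2e-04) and 1.23 ± 0.14 in the knockdown (adjusted p = 3.1e-07). Its relative HEXIM2 fell by 1.01 ± 0.25 in the knockdown (adjusted p = 0.00205), as did MEPCE, which caps 7SK, by 0.35 ± 0.10 (adjusted p = 0.00639). CCNT2, a cyclin of P-TEFb, rose by 0.69 ± 0.10 in the knockdown (adjusted p = 5.3e-06).

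Of 10 tested genes for proteins of RNase P and RNase MRP, 3 were higher and 0 lower in the knockout, and 3 were higher and 3 lower in the knockdown (medians 0.23 and 0.032). The knockout count was 5 higher with either knockdown library left out and with the length correction, which gave 5 higher and 2 lower in the knockdown. POP1, the largest protein subunit, rose by 0.86 ± 0.09 in the knockdown (adjusted p = 1.5e-07), and RPP14 by 0.55 ± 0.11. RPP25L and RPP25 fell by 0.89 ± 0.13 and 0.55 ± 0.11. Of 15 genes for U3 particle proteins and box C/D assembly factors, 5 were higher and 2 lower in the knockout and 6 higher and 6 lower in the knockdown (medians 0.24 and 0.26). The knockout gave 9 higher and 3 lower with either knockdown library left out, and 8 and 2 with the length correction. FBL, the fibrillarin methyltransferase of box C/D particles, stood at 129 and 121 CPM in the knockout, 70.4 and 71.3 CPM in the knockdown and 125 and 131 CPM in control, and fell by 0.85 ± 0.09 in the knockdown (adjusted p = 7.0e-08). The assembly factors RUVBL2 and PIH1D1 fell by 0.65 ± 0.08 and 0.73 ± 0.09, while ZNHIT6 rose by 0.80 ± 0.12.

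Of 13 genes for paraspeckle proteins, 3 were higher and 0 lower in the knockout, and 5 were higher and 4 lower in the knockdown (medians 0.16 and 0.10). The knockout count was 6 higher with either knockdown library left out and 5 with the length correction. SFPQ, a core paraspeckle protein, rose by 0.43 ± 0.08 in the knockout (adjusted p = 4.8e-04) and 0.68 ± 0.08 in the knockdown (adjusted p = 4.3e-07). RBM14 rose by 0.58 ± 0.10 and 0.76 ± 0.10. NONO, the partner of SFPQ, fell by 0.29 ± 0.08 in the knockdown (adjusted p = 0.00538). Of 12 genes for nuclear speckle proteins, 4 were higher and 0 lower in the knockout and 7 were higher and 3 lower in the knockdown (medians 0.23 and 0.22). The knockout count was 8 higher with either knockdown library left out and with the length correction, which gave 6 higher and 1 lower in the knockdown. SRRM2 stood at 31.3 and 42.7 CPM in the knockout, 73.1 and 166 CPM in the knockdown, and 31.9 and 29.9 CPM in control, and rose by 1.95 ± 0.23 in the knockdown (adjusted p = 5.3e-07), with replicate 2 the higher library as for MALAT1. SON, with which SRRM2 forms the core of speckles, rose by 0.79 ± 0.09, and METTL16, which binds the 3′ end of MALAT1, by 0.62 ± 0.09 (adjusted p = 6.3e-06).

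Of 33 genes for RNA polymerase III and its factors, 8 were higher and 4 lower in the knockout and 12 were higher and 7 lower in the knockdown (medians 0.12 and 0.15). These are 24.2% and 12.1% of the list in the knockout and 36.4% and 21.2% in the knockdown. Of all genes tested, 10.3% were higher and 12.1% lower in the knockout, and 22.2% and 25.3% in the knockdown. In the knockdown CRCP, a polymerase subunit, rose by 0.80 ± 0.10 (adjusted p = 2.2e-06), and ZNF143, a factor at promoters of the 7SK type, by 0.86 ± 0.11 (adjusted p = 1.7e-06). POLR1D, a subunit shared with RNA polymerase I, fell by 0.43 ± 0.09 in the knockout and 0.82 ± 0.09 in the knockdown, and SNAPC1, a subunit of the complex that opens small nuclear RNA promoters, fell by 0.98 ± 0.15 in the knockdown. GTF3A, the factor for 5S ribosomal RNA genes, fell by 0.64 ± 0.09 there.

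Other short noncoding RNAs gave few counts in these libraries. Of 37 models in the files, 10 were at 0 in all libraries, among them all 6 whose every base was shared. Of the 19 tested, 0 were higher and 0 lower in the knockout, with a median of 0.30. In the knockdown 8 were higher (42.1%) and 1 lower (5.3%), with a median of 1.25. Without knockdown replicate 1 it was 5 higher and 2 lower of 21, and without knockdown replicate 2 it was 9 higher and 1 lower of 21. BCYRN1, a brain-enriched RNA made by RNA polymerase III whose 5′ part is related to 7SL, was the one that fell: it had 211 and 207 counts in the knockout, 59 and 71 in the knockdown, and 190 and 211 in control. The knockdown fell by 1.73 ± 0.22, or 3.32-fold (adjusted p = 2.0e-06), and the knockout value was 0.003 ± 0.20. Of the 8 that rose, all but SNORD13 were spliceosomal RNAs, and all were at low level. RNU5F-1 stood at 3.3 and 3.0 CPM in the knockout, 6.5 and 4.3 CPM in the knockdown and 1.2 and 2.1 CPM in control, and rose by 1.67 ± 0.36 in the knockdown (adjusted p = 6.0e-04). RNU1-1 rose by 1.98 ± 0.48 (adjusted p = 0.00173) and RNU4ATAC by 1.78 ± 0.45 (adjusted p = 0.00265). For RNU1-1, control replicate 2 minus replicate 1 was -1.26 in log2 CPM. Its counts leave out fragments that fit another U1 gene equally well, so they do not measure U1 as a whole. Over all short noncoding genes tested, 47 of 206 were higher and 8 lower in the knockdown, with a median of 0.66. That is 22.8% higher and 3.9% lower, beside 22.2% and 25.3% of all genes tested. The share called higher was thus near that of all genes, and the share called lower was below it. Short noncoding genes were not matched to all genes for count level.

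Among 13 other long noncoding RNAs tested, 2 were higher and 1 lower in the knockout and 10 were higher and 2 lower in the knockdown, with medians of 0.13 and 0.85; in the knockdown against the knockout 9 were higher and 1 lower. KCNQ1OT1, the antisense RNA of an imprinted cluster, stood at 41.1 and 51.9 CPM in the knockout, 127 and 207 CPM in the knockdown and 39.7 and 45.2 CPM in control, and rose by 1.98 ± 0.16 in the knockdown (adjusted p = 3.3e-09). FTX and JPX, noncoding genes of the X-inactivation centre, rose by 2.01 ± 0.17 and 1.11 ± 0.09, and PVT1 by 1.78 ± 0.22. In log2 CPM, knockdown replicate 2 minus replicate 1 was 0.71 for FTX and 0.88 for PVT1, but 0.10 for JPX. TUG1 rose by 0.54 ± 0.09 and FIRRE by 0.82 ± 0.09, whereas OIP5-AS1 and CRNDE fell by 0.67 ± 0.09 and 0.46 ± 0.10. In the knockout, CYTOR rose by 0.93 ± 0.20 (adjusted p = 0.00181) and FIRRE by 0.36 ± 0.09 (adjusted p = 0.00621), while CRNDE fell by 0.32 ± 0.10 (adjusted p = 0.0332). Without knockdown replicate 2 the knockdown gave 9 higher and 2 lower, and with the length correction 11 and 2. Over all 2504 long noncoding genes tested, 340 were higher (13.58%) and 325 lower (12.98%) in the knockdown, beside 22.2% and 25.3% of all genes. In the knockout 58 were higher (2.32%) and 126 lower (5.03%), beside 10.3% and 12.1% of all genes. Long noncoding genes as a class were thus called less often than all genes tested, in both directions and both depletions. They were not matched to all genes for count level, and whether level accounts for the difference was not tested. MEG3 was at 0 in all libraries.

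**Figure D5:**
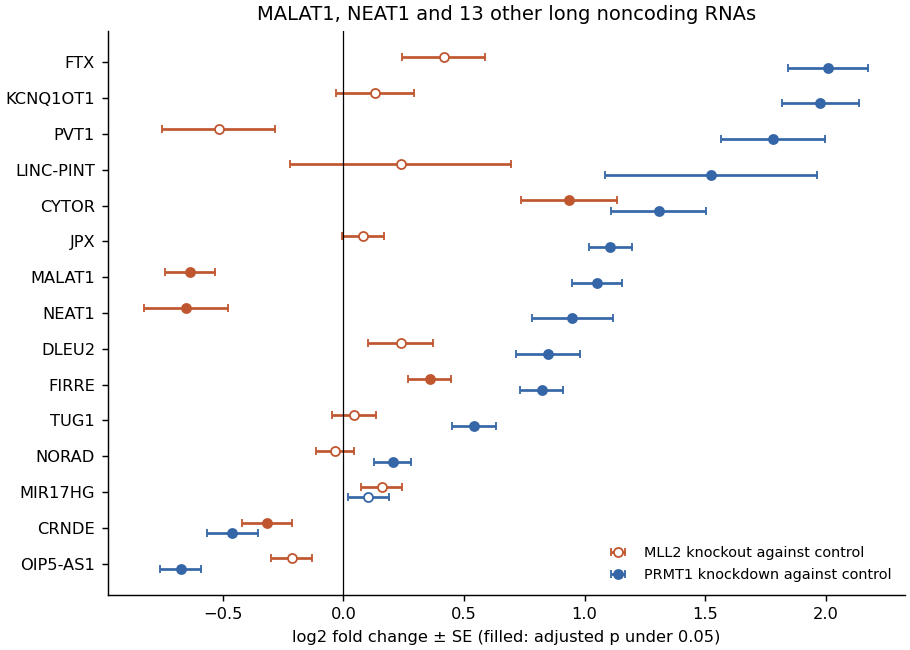
Log2 fold change ± SE of MALAT1, NEAT1 and 13 other long noncoding RNAs in the MLL2 knockout and the PRMT1 knockdown against control, ordered by the knockdown value; filled points passed an adjusted p of 0.05. In the knockout MALAT1 at -0.64 and NEAT1 at -0.65 are the lowest of the 15, and in the knockdown both stand among the RNAs right of 0.

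The genes whose pattern over the 6 libraries was most like that of each RNA were found among 8563 genes averaging above 4 in log2 CPM, by the root mean square difference of log2 CPM centred on each gene's mean. For RN7SL1 these were SLC25A37 (0.029) and CDC42EP1 (0.030), for SNORD3A TFCP2 (0.037) and TNKS1BP1 (0.053), for MALAT1 CRY2 (0.13) and JAG2 (0.17), and for NEAT1 PLEC (0.10) and VPS13B (0.19). CRY2, a repressor of the circadian clock, stood at 17.6 and 17.9 CPM in the knockout, 52.8 and 53.0 CPM in the knockdown, and 25.8 and 25.8 CPM in control. PLEC, which encodes the cytoskeletal linker plectin, stood at 19.1 and 22.7 CPM in the knockout, 42.2 and 88.9 CPM in the knockdown, and 32.9 and 34.1 CPM in control. A match over 6 libraries in 3 groups describes these libraries and nothing further.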

How the data were processed

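The 7 RNAs and all gene lists were chosen with earlier results of these data known. RNA was extracted with TRIzol and made into stranded, ribosomal RNA-depleted libraries with the TruSeq Stranded Total RNA Library Prep Gold kit, per the labels' protocols. FastQC 0.11.4, Trim Galore 0.6.10, STAR 2.7.5a and hg38 are named in the submitters' processing notes, with no order given. Raw counts per gene were deposited by the authors, made by featureCounts 2.0.1 per the file headers (the processing notes name version 1.5.0-p1) on GENCODE 34, for paired reverse-stranded fragments with a mapping quality of at least 10. Per the same headers, fragments with several alignments or overlapping several genes were not assigned. The second number deposited for each gene, its exon length, is in nucleotides.

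Genes passing edgeR's filterByExpr (17575 genes, 13328 of them protein-coding by GENCODE 29) were fitted in edgeR 4.0.16 under R 4.3.3 with glmQLFit and glmQLFTest: TMM scaling, 1 term per group, all 6 libraries, 3 residual degrees of freedom, Benjamini-Hochberg adjustment over all genes and a threshold of 0.05. Changes are log2 fold changes ± SE. The files give gene IDs; symbols came from a reference table. The script was tested on simulated data. Named genes were the 7 RNAs, in each list up to 4 members with the smallest adjusted p in either depletion, and for each RNA the 2 genes most like it; RN7SL3, the copies of U3 and 7SK, and further list members were named after their values were seen. Sequences are GENCODE 29 transcripts, aligned with Biopython 1.88. Alternatives were other scalings and filters, DESeq2 1.42.0, an offset for exon length, a replicate block, 2 groups alone, copies summed, and each library left out. Some items are not reported here.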

Additional observations from a re-analysis of the deposited data

How the results depend on the processing

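Of the counts of calls and summed shares recomputed under other settings, 106 stayed within 1.5 times the reported count or within 1 SD of the reported share and 8 did not; of the changes of single RNAs, 212 kept direction and side of the threshold, 15 gained a call, 17 lost one and 8 changed sign. The knockout's count of genes called ran from 1908 to 5492 when each library was left out in turn, against 3941. Its count of called RNAs was 1 with DESeq2 and ran from 1 to 3 over left-out libraries. The knockout's summed share was 5.63% over a total without the 7 RNAs and 5.47% over totals times TMM factors. The sign changes were in RN7SL1 and SNORD3A: RN7SL1 in the knockout ran from -0.11 to 0.079 over left-out libraries, being above 0 without control replicate 2 and without knockout replicate 2 (0.017). In the knockdown against control it was 0.029 with the length offset and 0.031 with the block too, and against the knockout 0.040 and 0.036 in the same order. SNORD3A in the knockdown ran from -0.21 to 0.24, the lower end without knockdown replicate 2, and was -0.10 without control replicate 1. The cause was not tested.

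The labels do not pair the replicate numbers. Deviations of same-numbered libraries correlated at 0.09 for knockout and control, 0.01 for knockdown and control and 0.28 for knockdown and knockout, over 8567 genes. A replicate block called 4512 genes in the knockout, 8710 in the knockdown and 7529 between them, against 3941, 8338 and 7154, and added calls for SNORD3A in the knockout (-0.26, adjusted p = 0.0271) and RN7SL1 in the knockdown against the knockout (-0.23, adjusted p = 0.0174). Among the 5 pseudogenes of 7SK and 7SL with the most counts, the block called 2 lower in the knockout and 4 in the knockdown, against 0 and 2. Over all genes the block called 2373 lower in the knockout and 4615 in the knockdown, against 2124 and 4439. With 2 libraries a group, a fit that leaves 1 alone assumes that it varies like the others.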
